A study of Mus musculus with 6 samples.

Results

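The genes described here are 10 markers used to recognise mammary stem cells, mammary progenitors or tumor-initiating cells: Cd44, Cd24a, Prom1, Ly6a, Procr and Kit at the cell surface, the aldehyde dehydrogenases Aldh1a1 and Aldh1a3, and the transcription factors Sox9 and Sox2. They were chosen by gene symbol, and all 10 had a row among the 24129 gene rows of the normalized counts. RNA sequencing had been performed on T1 and T2 cells with 3 replicates each. Both populations descended from the GFP-tagged 4T1 cell line (4T1GFP), a mammary carcinoma line of BALB/c mice, grown as a tumor in BALB/c hosts. They were recovered from that tumor through a culture sorted for fibroblasts, which tumor cells had overgrown and which was then sorted again for GFP. T1, labelled 4T1A and aggressive, had low GFP, an adherent epithelial shape and a high proliferation rate. T2, labelled 4T1NA and non-aggressive, had high GFP, a round shape and loose attachment, and was passaged without trypsin. No agent was given, both were grown in the same serum-containing medium, and parental 4T1GFP cells are not analysed here.

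The labels call the replicates independent but do not say whether they were separate cultures, so p-values measure only the spread between these samples. Each population came from the same tumor and sort, and population, GFP level and culture handling cannot be told apart.

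In breast tissue, stem and progenitor cells are recognised by combinations of surface proteins rather than by a single one. CD44 is the receptor for hyaluronan, and CD24 is a small mucin-like glycoprotein anchored in the membrane. High CD44 protein together with low CD24 protein is widely used to sort tumor-initiating cells from human breast tumors. In mouse mammary gland, CD24 is combined with the integrins CD29 and CD49f, Procr marks a population of multipotent basal stem cells and KIT marks luminal progenitors. The ALDH1A enzymes oxidise retinaldehyde to retinoic acid and contribute to the ALDH activity assay. SOX9 is a luminal progenitor factor, and SOX2 is a core pluripotency factor. The question addressed was whether the transcripts of these markers differed between T1 and T2, whose capacity for self-renewal the study compared in a tumorsphere assay.

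Libraries held between 18133227 and 20839686 reads on genes, and 1 normalized count was close to 1 read. Mammary epithelial keratins Krt8 and Krt18 were abundant in both populations, and 11 of 16 epithelial markers were compared. Of these 11, 8 were higher in T1 past both filters of the study, Epcam and Cdh1 among them, Krt8 and Krt18 did not pass, and Gata3, a luminal transcription factor, was lower in T1 (log2 fold change -1.32). Of the 15 leukocyte, mast cell and blood stem cell markers, 0 reached the mean of 10 normalized counts needed for a comparison, 9 had no read and their summed level was 10.6 to 19.5 normalized counts in T1 and 14.3 to 20.4 in T2, with Coro1a highest at 12.1. The 12 endothelial markers summed to 537 to 606 in T1 and 3689 to 4147 in T2. Flt1, a VEGF receptor, reached 3923, while Pecam1 was at most 4.6 and Kdr was listed at 0 throughout. The 12 fibroblast markers summed to 565 to 745 in T1 and 2145 to 2669 in T2, led by Col6a1 in both. The fibrillar collagen Col1a1 went the other way, with 14.8, 27.9 and 24.4 normalized counts in T1 and 1 read in all of T2, while Col3a1, Lum, Pdgfrb, Thy1 and Dpt were listed at 0 in every library. The part of these differences in the results was not tested. The housekeeping gene Gapdh was itself listed at 0 in 5 libraries, so a gene listed at 0 cannot be taken as silent.

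Of the 10 markers, 4 reached a mean of 10 normalized counts over the 6 libraries and were compared: Cd44, Cd24a, Procr and Sox9. All 4 passed an adjusted p of 0.01 in limma, Procr higher in T1 and the other 3 lower in T1. Against these counts, 25.1% of the 11514 genes compared were higher in T1 and 24.4% lower at the same threshold, so passing it was common. A total of 0 of the 4 also passed the second filter of the study, a log2 fold change beyond 2, against 4.17% of genes higher and 4.2% lower; all 4 had an unadjusted p under 0.05, and edgeR and DESeq2 likewise placed 0 of them past both filters. The values of T1 and T2 did not overlap for any of the 4, which held for 68.1% of all genes compared. The median log2 fold change of the 4 was -0.88 and that of all genes was -0.0055.

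**Figure D1:**
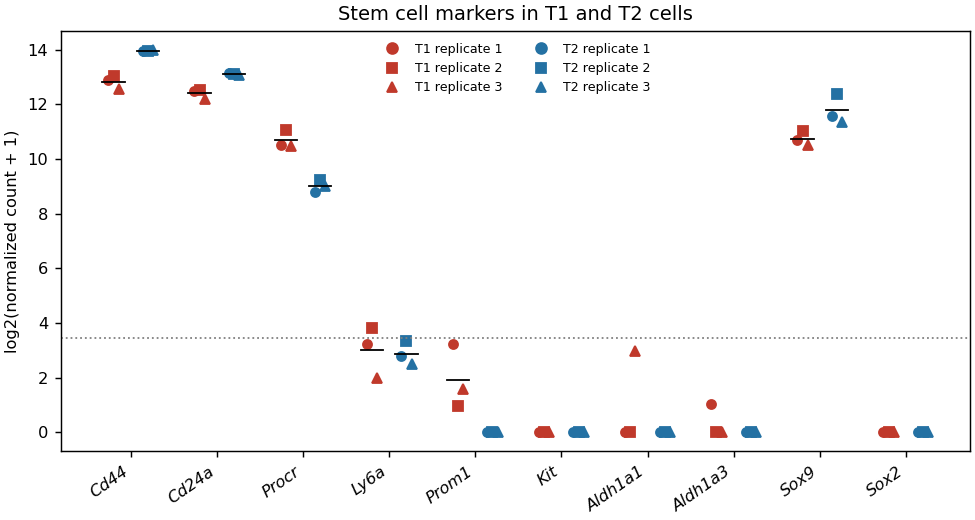
Normalized counts of the 10 markers in each library, on the vertical axis as log2(normalized count + 1), for T1 (red) and T2 (blue). Symbols give the replicate, black bars the mean of log2 values where no library of the group was listed at 0, and the dotted line a normalized count of 10. Cd44, Cd24a, Procr and Sox9 lie far above the line, and the other 6 markers lie around or below it.

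Cd44 was higher in T2. Its normalized counts were 7637, 8415 and 6054 in T1 and 15964, 15987 and 16140 in T2. Every T2 library lay above every T1 library, and the T2 libraries were nearly equal, with a coefficient of variation of 0.598% against 16.3% in T1. The mean was 7369 ± 1203 (SD, n = 3) in T1 and 16030 ± 95.9 (SD, n = 3) in T2, a 2.18-fold higher level in T2. The log2 fold change, T1 over T2 on the log2(normalized count + 1) scale as for all limma values here, was -1.13 with an SE of 0.11 and a 95% interval of -1.38 to -0.89 (limma adjusted p = 9.18e-06). The gene spans chr2:102811141-102901665 on the minus strand of mm10, with 9 annotated transcripts and 19 merged exons. CD44 messages differ in their variable exons, and gene-level counts do not tell those apart.

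Cd24a likewise was higher in T2. Its normalized counts were 5818, 5853 and 4684 in T1 and 9128, 8961 and 8611 in T2. The third T1 library was the lowest, as it was for Cd44, and the groups did not overlap. Means of 5452 ± 665 and 8900 ± 264 (SD, n = 3 each) gave a 1.63-fold higher level in T2 and a log2 fold change of -0.71 (SE 0.093, 95% interval -0.92 to -0.51, limma adjusted p = 7.95e-05). The gene lies at chr10:43578284-43584265 on the plus strand, and 1.10% of its 75-base windows are shared with transcripts of Gm6212.

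Procr encodes the endothelial protein C receptor, and it was the compared marker higher in T1. Its normalized counts were 1461, 2111 and 1435 in T1 and 447, 604 and 516 in T2. The second library was the highest in each population, and the lowest T1 library stood well above the highest T2 library. The mean was 1669 ± 383 in T1 and 522 ± 79.0 in T2 (SD, n = 3 each), 3.2-fold higher in T1, and the log2 fold change was 1.66 (SE 0.16, 95% interval 1.30 to 2.02, limma adjusted p = 9.82e-06). Of the 11514 genes, 10.7% had a larger change in either direction. The gene lies at chr2:155751117-155755471 on the plus strand, with 3 merged exons.

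Sox9 was higher in T2 with a wide spread. Its normalized counts were 1650, 2108 and 1444 in T1 and 3073, 5383 and 2635 in T2. The second T2 library stood apart from the other two, which gave T2 a coefficient of variation of 39.9%, and the groups still did not overlap. Means of 1734 ± 340 and 3697 ± 1477 (SD, n = 3 each) gave a 2.13-fold higher level in T2 and a log2 fold change of -1.04 (SE 0.23, 95% interval -1.55 to -0.53, limma adjusted p = 0.00274). The call was the least firm of the 4: the adjusted p was 0.0195 without the variance trend, 0.0102 without T1 replicate 1 and 0.0106 without T1 replicate 3, all above the threshold, and the log2 fold change was -0.73 without T2 replicate 2. With same-numbered replicates as blocks, the limma adjusted p was 1.64e-05. The gene lies at chr11:112782224-112787760 on the plus strand.

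For single genes, an exact two-sided permutation test over the 6 libraries gave p = 0.1 for each of the 4, the smallest value that 3 libraries against 3 allow.

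The proximal promoters of Cd44 and Procr are shown because these markers had the largest differences in the opposite directions, and both lie on chromosome 2. Each run covers 250 bases before to 50 bases after the annotated start in RefSeq (GRCm38.p6), 5′ to 3′ on the strand of the gene, at chr2:102901616-102901915 on the minus strand for Cd44 and chr2:155750967-155751266 on the plus strand for Procr. Capitals mark a GC box, GGGCGG, in Cd44 and the AP-1 letters, TGACTCA, in Procr.
Cd44 promoter: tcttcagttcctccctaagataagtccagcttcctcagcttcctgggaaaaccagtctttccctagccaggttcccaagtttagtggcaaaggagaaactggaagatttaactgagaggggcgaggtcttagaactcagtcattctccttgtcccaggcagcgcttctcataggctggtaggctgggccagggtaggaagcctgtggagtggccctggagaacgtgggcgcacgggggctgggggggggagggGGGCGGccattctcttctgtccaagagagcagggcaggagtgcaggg
Procr promoter: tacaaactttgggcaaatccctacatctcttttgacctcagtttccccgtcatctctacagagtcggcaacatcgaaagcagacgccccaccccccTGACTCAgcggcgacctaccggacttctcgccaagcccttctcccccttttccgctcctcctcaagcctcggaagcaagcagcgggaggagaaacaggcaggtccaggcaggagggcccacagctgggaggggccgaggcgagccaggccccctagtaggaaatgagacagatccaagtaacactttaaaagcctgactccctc
The windows were alike in base composition, 58.0% G or C in Cd44 and 58.3% in Procr, and held 6 and 13 CpG dinucleotides. GGGCGG occurred once in Cd44, from position 3 after the start, and TGACTCA once in Procr, from position -154. On neither strand did either window hold the CCAAT box, a TATA box searched as TATAAA, or the E-box of the SNAI and ZEB type, searched as CACCTG. The AP-1 letters were not in the Cd44 window, nor the GC box letters in that of Procr. Among 11310 promoters of the genes compared, 64.2% held the GC box, 37.9% the CCAAT box, 6.69% the TATA box, 17.8% the E-box and 3.85% the AP-1 letters on either strand. The search for TGACTCA was added after the sequence was seen, and a match describes letters in the window only. Promoters were found in the table for 6 of the 10 markers.

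The order of the 4 markers was compared per length, as normalized counts per kilobase of merged exon. In T1 the level was 2113 ± 258 for Cd24a, 1087 ± 178 for Cd44, 822 ± 189 for Procr and 419 ± 82.3 for Sox9 (SD, n = 3). The T1 ranges of Cd44 (893 to 1242) and Procr (706 to 1039) overlapped, and the other neighbours in the order did not. In T2 the level was 3450 ± 102 for Cd24a, 2366 ± 14.1 for Cd44, 894 ± 357 for Sox9 and 257 ± 38.9 for Procr, with no overlap between neighbours. Sox9 and Procr therefore stood in the opposite order in T1 and T2. Among 11128 genes with a length, Procr was above 88.6% in T1 and 65.0% in T2, Sox9 above 77.0% and 90.4%, Cd44 above 91.9% and 97.4% and Cd24a above 96.7% and 98.5%.

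**Figure D2:**
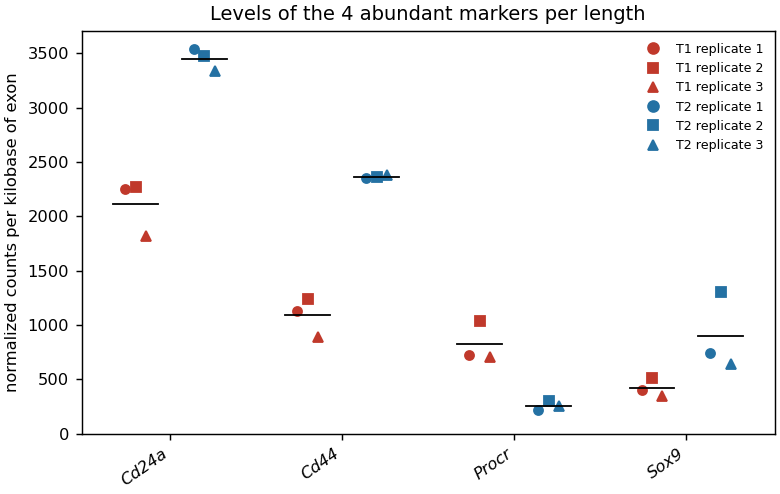
Level of the 4 compared markers in each library, in normalized counts per kilobase of merged exon, for T1 (red) and T2 (blue), with bars at the means. Procr lies above Sox9 in T1, at 822 against 419, and below it in T2, at 257 against 894.

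Within each library, the ratio of Cd44 to Cd24a normalized counts was 1.31, 1.44 and 1.29 in T1 and 1.75, 1.78 and 1.87 in T2. These counts were not corrected for length, and per kilobase Cd24a was above Cd44 in both populations. All T2 libraries had the higher ratio, since Cd44 differed more than Cd24a did. The mean log2 ratio was 0.43 ± 0.083 in T1 and 0.85 ± 0.051 in T2 (SD, n = 3 each), a difference of -0.42, which is given without a test. Both transcripts were abundant in both populations. Cd24a was itself higher in T2, so the higher ratio there was not a low level of Cd24a. The ratio of Sox9 to Procr was 1.13, 0.999 and 1.01 in T1 and 6.88, 8.91 and 5.11 in T2. This second ratio was not planned. Procr was higher and Sox9 lower in T1 without overlap, so its separation was fixed by those values.

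**Figure D3:**
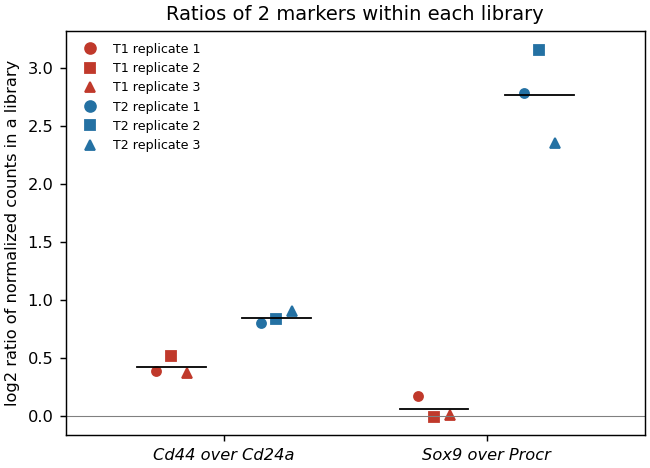
Log2 ratio of the normalized counts of 2 markers within each library, before any correction for length, for T1 (red) and T2 (blue), with bars at the means. The Cd44 to Cd24a ratio averages 0.43 in T1 and 0.85 in T2, and the Sox9 to Procr ratio lies near 0 in T1 and above 2 in T2.

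The other 6 markers gave few reads or none. Prom1, which encodes CD133, had 8, 1 and 2 reads in T1 and was listed at 0 in all 3 T2 libraries. Every T1 library had a read, yet without the filter on low counts its limma adjusted p of 0.016 missed the threshold. Of its exon bases, 5.91% overlap the antisense gene Gm16401. The library kit was unstranded, so reads from that overlap cannot be assigned to either gene by strand. Ly6a, which encodes SCA-1, had 8, 14 and 3 reads in T1 and 6, 9 and 5 in T2, so the groups overlapped. It shares 6.33% of its 75-base windows with relatives such as Ly6c1 and Ly6i, and Ly6c1 itself was as low, at 4.2, 5.6 and 1.0 normalized counts in T1 and 9.8, 2.0 and 13.0 in T2, while Ly6c2 did not exceed 1.1. Aldh1a1 had 7 reads in the third T1 library and was listed at 0 in the other 5, and Aldh1a3 had 1 read in the first T1 library and was listed at 0 elsewhere. Kit and Sox2 were listed at 0 in every library, as was Sox2ot, the long noncoding RNA whose span contains Sox2. Kit and Sox2 share 0% of their 75-base windows with transcripts of other genes, whereas Gapdh, listed at 0 in 5 libraries, shares 22.6%. The cause of these zeros was not tested. A floor of 3 reads corresponded to between 2.78 and 3.17 normalized counts, covering counting error only, so small differences in these 6 genes were not detectable at this depth.

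Related genes were followed through 9 lists holding 179 different genes, of which 85 were compared; 30 were higher in T1 and 38 lower, beside the 25.1% and 24.4% of all genes given above. Among 28 other stem and progenitor markers, 17 were compared, 6 were higher in T1, 9 were lower and 2 did not pass. Itga6 (CD49f), the basal integrin subunit, had 6148, 6842 and 5939 normalized counts in T1 and 19236, 19424 and 17927 in T2, and its log2 fold change was -1.58 (limma adjusted p = 8.35e-08). Itgb1 (CD29), its partner, went the other way, with 33089, 39074 and 35930 in T1 and 20918, 21657 and 20774 in T2 (log2 fold change 0.77, limma adjusted p = 1.65e-05). These integrins and Lgr6 were chosen after their values were seen.

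Epcam, the epithelial adhesion molecule, showed the largest rise in T1 of that list, with 2989, 2931 and 3502 normalized counts against 37.2, 30.7 and 36.2 in T2 (log2 fold change 6.46, limma adjusted p = 4.04e-10). Cd14, a luminal progenitor surface marker, was also higher in T1, by 2.04 on the log2 scale. Id4, a basal cell inhibitor of DNA binding, went furthest the other way, from 10.6, 4.7 and 1.0 in T1 to 341, 438 and 337 in T2 (log2 fold change -6.19, limma adjusted p = 3.46e-06). Alcam (CD166) had a log2 fold change of -2.96 and Lgr6, an R-spondin receptor, of -2.81. Lgr5, Axin2, Bcl11b, Snai2, Thy1 and Cd55 were listed at 0 in every library.

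Among 20 pluripotency factors and partners, 12 had no read, Nanog and Lin28a among them, and 5 were compared. Klf2 (log2 fold change -2.61) and Klf5 (-0.75) were lower in T1, and Myc (1.27) and the noncoding RNA Lncenc1 (7.97) were higher. Klf4 had 190, 593 and 548 normalized counts in T1 and 503, 1616 and 582 in T2 and did not pass (limma adjusted p = 0.0991). The second T2 library, which was highest for Sox9, was also the highest of the 6 for Klf4, Klf2 and Klf5.

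In the rest of the Sox family, 7 of 18 genes were compared, with 4 higher in T1 and 1 lower. Sox13 had 33.9, 33.5 and 43.9 normalized counts in T1 and was listed at 0 in all T2 libraries, at least 12.7-fold higher in T1 against a floor of 3 reads per library. Sox11 was likewise at least 9.09-fold higher in T1. Sox5 was lower in T1, with a log2 fold change of -0.96, and Sox4, a progenitor factor, had a log2 fold change of 0.16 (limma adjusted p = 0.316).

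Of 18 aldehyde dehydrogenases outside the markers, 11 were compared, 3 were higher in T1, 5 were lower and 3 did not pass. A total of 9 had an unadjusted p under 0.05, and 0 passed both filters in limma. Aldh2, the mitochondrial enzyme that clears acetaldehyde, had the highest mean level per length in both populations, at 1039 ± 166 normalized counts per kilobase in T1 and 2145 ± 70.7 in T2 (SD, n = 3 each). In T1 its range overlapped that of Aldh18a1, which was the higher of the pair in the third T1 library at 1471 against 1230. Aldh3a2, which oxidises fatty aldehydes, had a log2 fold change of -1.31, and Aldh6a1, of valine breakdown, of -1.56. Aldh7a1, of lysine breakdown, was higher in T1 by 1.47 on the log2 scale, and Aldh18a1, of proline synthesis, by 1.36. For Aldh18a1 the third T1 library had 5990 normalized counts against 2573 and 2570 in the other T1 libraries, and T2 had 1380, 1351 and 1255. Without the third T1 library the log2 fold change was 0.95. Aldh1a2 was listed at 0 throughout, and Aldh1a7, the nearest relative of Aldh1a1, had at most 1 read.

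**Figure D4:**
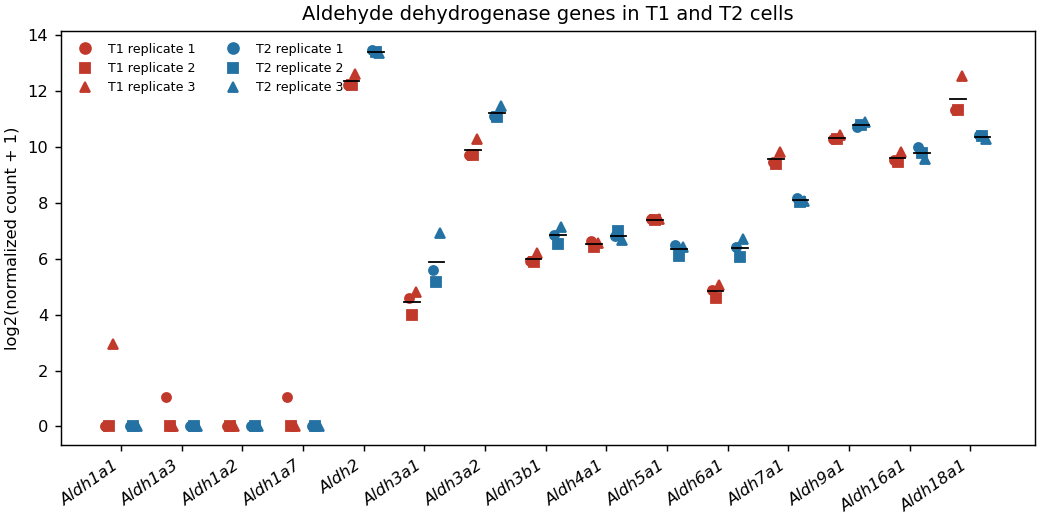
Log2(normalized count + 1) of aldehyde dehydrogenase genes in each library, for T1 (red) and T2 (blue), with bars at the means where no library of the group was listed at 0. The ALDH1A genes lie at or near 0, with 7 reads of Aldh1a1 in the third T1 library, and Aldh2 has the highest counts in both populations, before any correction for length.

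Among 20 genes of retinoic acid synthesis, breakdown and reception, 9 were compared. The binding protein Crabp2 (log2 fold change 3.43) and the retinal reductase Rdh11 (1.77) were among 3 genes higher in T1. Dhrs9, a retinol dehydrogenase (-2.21), and Rara, a retinoic acid receptor (-1.23), were the 2 lower in T1.

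For the partners of CD44, 15 of 19 genes were compared, with 6 higher in T1 and 5 lower. The hyaluronan synthases changed in opposite directions. Has2 had 1803, 2724 and 1543 normalized counts in T1 and 222, 546 and 436 in T2, whereas Has3 had 15.9, 22.3 and 14.6 in T1 and 871, 872 and 1019 in T2 (log2 fold change -5.65, limma adjusted p = 6.74e-09). Spp1, which encodes the CD44 ligand osteopontin, had 5065, 3585 and 4363 in T1 and 73484, 70054 and 75899 in T2 (log2 fold change -4.09, limma adjusted p = 2.37e-09). Esrp1 and Esrp2, splicing regulators that are known to act on CD44 variable exons, were both higher in T1. Esrp1 had 674, 697 and 687 in T1 and a single read in T2, at least 234-fold higher in T1 against the floor, and Esrp2 had a log2 fold change of 3.26. Has2 was chosen after its values were seen.

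For Procr, 8 of 17 genes of the protein C, protease-activated receptor and TAM receptor system were compared, 3 higher in T1 and 5 lower. F2rl1 (PAR2) was higher in T1, at 1240, 994 and 1244 normalized counts against 144, 152 and 143, and F3, tissue factor, was higher by 2.32 on the log2 scale. F2r (PAR1) went the other way, at 472 ± 18.0 normalized counts per kilobase in T1 and 759 ± 14.5 in T2 (SD, n = 3 each). Pros1, which encodes protein S, the cofactor of protein C, had a log2 fold change of -6.07. Mertk, a receptor for protein S, was at least 69.6-fold higher in T2 against the floor of 3 reads. Thbd, the thrombomodulin gene, and Gas6 were listed at 0 in every library.

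For Kit, 10 of 16 genes of its ligand, related receptors and downstream proteins were compared, 1 higher in T1 and 8 lower, 6 of these past both filters, beside 24.4% of all genes lower at the threshold and 4.2% past both filters. Their median log2 fold change was -2.18 against -0.0055 over all genes. Kitl, the KIT ligand, which was chosen after its values were seen, had 507, 486 and 338 normalized counts in T1 and 2238, 2045 and 2393 in T2, although Kit itself was listed at 0 in both. Pdgfra, the gene of the CD140a antigen used in the fibroblast sort, had 206, 191 and 201 in T1 and 996, 1004 and 1295 in T2 (log2 fold change -2.45, limma adjusted p = 1.26e-07). Sh2b3, an adaptor that restrains cytokine receptors, had a log2 fold change of -2.48, and Flt3l, the FLT3 ligand, was the gene higher in T1, by 1.18.

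In the Ly6 and uPAR family, 3 of 23 genes other than Ly6a were compared, 2 higher in T1 and 1 lower. Ly6e, at 461, 443 and 610 normalized counts in T1 and 3.9, 4.1 and 10.2 in T2, had a log2 fold change of 6.26 (limma adjusted p = 1.23e-07). Lypd3 was higher in T1 by 2.13, and Plaur, the urokinase receptor, had a log2 fold change of -0.72.

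**Figure D5:**
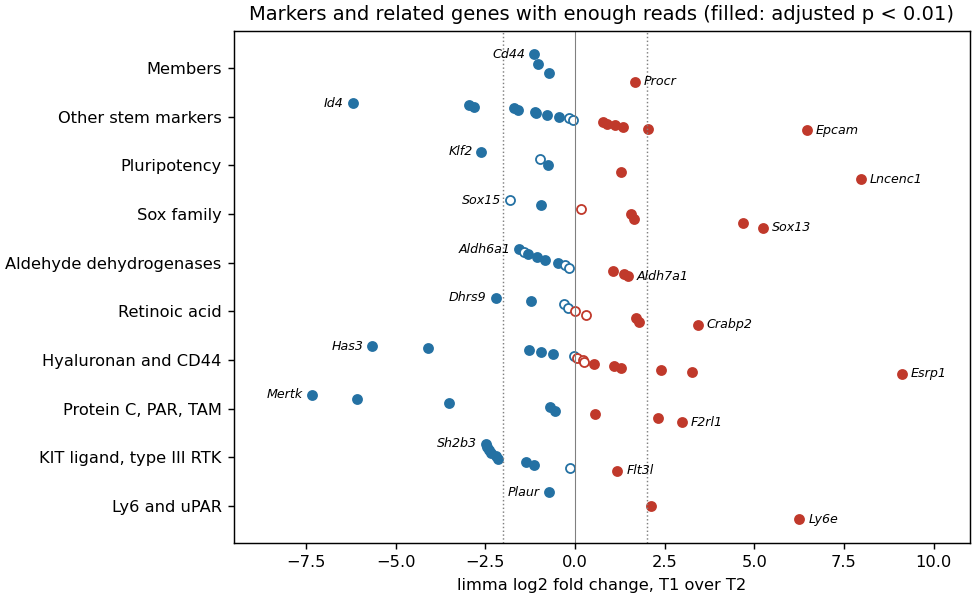
Limma log2 fold change, T1 over T2, of the 4 compared markers and of the compared genes in the 9 related lists, 1 point per gene. Filled points passed an adjusted p of 0.01, dotted lines mark a log2 fold change of 2 in either direction, and the genes at the ends of each list are named. The markers lie between -1.13 and 1.66, while related genes reach beyond 2 in both directions.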

How the data were processed

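RNA from 3 replicates each of T1 and T2 had been sequenced as poly(A) libraries made with an unstranded kit. According to the methods, the authors trimmed reads with Trimmomatic, used TopHat2 for alignment to mm10 and HTSeq for gene counts, and scaled these with DESeq2; versions, annotation and strand setting are not given in the sources used here. The deposited values are a signal, read counts divided by 1 size factor per library, and 100% gave whole reads (tolerance 0.01). Genes with a mean of at least 10 were compared with limma 3.58.1 (trended variance, R 4.3.3) on log2(value + 1), with Benjamini-Hochberg adjustment over 11514 genes and a threshold of 0.01. This test was used because the deposited values are not counts, and edgeR 4.0.16 and DESeq2 1.42.0 were run on the recovered reads as alternatives. A gene with few reads in T1 or T2 could reach the mean of 10 only through the other population. Its direction was then set by that filter. Changed filters, pseudocounts, scaling and left-out replicates were also tried, and the limma, edgeR and DESeq2 fits were tested on simulated data. Gene positions and exon lengths came from GENCODE M21 (GRCm38). Of the rows, 27 had names turned into dates and 4 had repeated names. The markers and lists were chosen with earlier results of these data known. From each list the text names, among called genes without overlap, the 2 largest changes in each direction, the top gene of each list of another cell type's markers, and the nearest paralogs and overlapping genes of a marker. Other genes named were chosen after their values were seen.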

Additional observations from a re-analysis of the deposited data

How the results depend on the processing

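Over 16 alternatives, edgeR and DESeq2 among them, the log2 fold change ranged from -1.24 to -1.0 for Cd44 and from -0.78 to -0.61 for Cd24a. It ranged from 1.48 to 1.77 for Procr and from -1.25 to -0.73 for Sox9. The direction held in all 16 alternatives. The call was lost for Sox9 in 3, namely without the variance trend and without T1 replicate 1 or 3, and its cause was not tested. Leaving out single replicates gave the same ranges for Cd44, Procr and Sox9. Using the longest annotated transcript as the length gave levels per kilobase of 1313 in T1 and 2855 in T2 for Cd44, 3002 and 4901 for Cd24a, and 1038 and 325 for Procr, with the order unchanged. Same-numbered replicates of T1 and T2 deviated together with r = 0.0575, 0.172 and 0.104. Every sample correlated best with its own number except T2 replicate 1, which was closer to T1 replicate 3 (r = 0.0719). The main fit did not take the samples as paired. With the replicate block, 1 marker was higher and 3 were lower in T1 as before, and of the related genes 29 were higher and 41 lower against 30 and 38 without it. The limma adjusted p with the block was 1.64e-05 for Sox9 and 4.86e-07 for Procr, against 0.00274 and 9.82e-06 without it. Counts in the lists moved. Of the other stem and progenitor markers, 6 were lower in T1 without T1 replicate 1 or without T2 replicate 3, against 9 in the main fit. Without the variance trend, 7 of them were lower. Without the filter on low counts 2 genes each were lower in T1 in the Ly6 and Sox lists and 2 were higher in the Kit list, and with a mean of at least 50 required, 1 Sox gene and 0 Kit list genes were higher, against 4 and 1. Without T1 replicate 3, 4 retinoic acid genes and 2 Sox genes were lower in T1, against 2 and 1 with it, and without T1 replicate 2, 0 genes of the Kit list were higher, against 1. Few reads or none limited what could be compared for 6 of the 10 markers, each with at most 14 reads in any library. The cause of these low counts was not tested.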

Other observations

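The nearest compared gene on each side of the 4 markers was looked up after the data had been seen. Beside Cd44, Fjx1 had 24.3, 45.6 and 43.9 normalized counts in T1 and was listed at 0 in all T2 libraries, at least 12.9-fold higher in T1. Pdhx had a log2 fold change of 0.74, the other direction from Cd44. Both neighbours of Cd24a, 1700021F05Rik (log2 fold change 0.77) and Qrsl1 (0.98), were also higher in T1 while Cd24a was lower. Of the neighbours of Procr, Edem2, 21642 bases away, was higher in T1 by 0.49 (limma adjusted p = 0.0066). Mmp24, 19871 bases away, was at least 8.40-fold higher in T1 against the floor of 3 reads. Edem2 missed the threshold without T2 replicate 2 (limma adjusted p = 0.0244) and without T1 replicate 3 (limma adjusted p = 0.0157). Mmp24 had 12.7, 46.5 and 14.6 normalized counts in T1 and 2 reads in all of T2, and without T1 replicate 2 the bound was 4.66-fold. Beside Sox9, Prkar1a, 3112568 bases away, had a log2 fold change of -1.04, and 2610035D17Rik one of 1.0 (limma adjusted p = 0.049), which did not pass.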
